A study of Mus musculus with 4 samples.

Results

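Msx1 and Msx2 were followed by name across single-cell RNA sequencing of mouse intestinal adenomas. They are 2 of the 27514 genes listed in all 4 gene tables. In every library most Msx1 UMIs of the cells kept were in adenoma-like cells, whereas Msx2 was close to the limit of detection. The 4 libraries came from intestinal adenomas of C57BL/6 mice aged 11 weeks, all labelled male. All carried the ApcMin allele, a truncating mutation in 1 copy of Apc whose loss drives Wnt signaling and adenoma growth. The 2 ApcMin libraries (genotype ApcMin/+;Lef1 +/+) kept Lef1. The 2 VApcMinL libraries (ApcMin/+;Lef1 fl/fl;Villin-Cre) carried floxed Lef1 alleles and Cre under the Villin promoter, which is active in intestinal epithelium and not in stroma or blood cells. Droplet kit version 2 served for both first replicates and version 3 for both second replicates, so each kit gave 1 library per group. The study asked how loss of Lef1, a transcription factor of the Wnt pathway, alters Apc-mutant adenomas, and used Msx1 as a marker of ectopic crypts.

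Msx1 and Msx2 encode closely related homeodomain proteins that mostly repress transcription. Both are classic targets of bone morphogenetic protein (BMP) signaling in limb, tooth and craniofacial development. There, BMP ligands bind type I and type II receptors, Smad1, Smad5 and Smad9 are phosphorylated and join Smad4, and transcription of Id genes, Smad6, Smad7 and Msx genes rises. In the intestine BMP signaling is strongest in the villus and restrains stem cells, and Msx1 is known for its presence in Apc-mutant lesions.

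In the GENCODE annotation of GRCm38, the build of the files (mm10), Msx1 (ENSMUSG00000048450) spans 4099 bases on the minus strand of chromosome 5, from 37820485 to 37824583. Its first listed transcript has 2 exons. Msx2 (ENSMUSG00000021469) spans 6191 bases on the minus strand of chromosome 13, from 53466884 to 53473074, and its first listed transcript also has 2 exons. The stretch from 250 bases before to 50 bases after each start site is shown so that the regulatory starts of both genes can be set side by side. The RefSeq start of Msx2 lies inside the GENCODE span, so the Msx2 stretch is within the gene as GENCODE draws it. The sequences are from RefSeq (GRCm38.p6), 5′ to 3′ on the minus strand, and capitals mark CCAAT (or ATTGG, its reverse complement) and TAATTA, a letter string that homeodomain proteins bind.
Msx1, chr5:37824536-37824835: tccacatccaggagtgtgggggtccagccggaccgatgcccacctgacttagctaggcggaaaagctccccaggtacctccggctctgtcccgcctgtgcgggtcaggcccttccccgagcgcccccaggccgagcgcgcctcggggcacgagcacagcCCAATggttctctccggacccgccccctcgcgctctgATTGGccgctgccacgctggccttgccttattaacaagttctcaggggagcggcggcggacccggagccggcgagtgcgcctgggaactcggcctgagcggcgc
Msx2, chr13:53472731-53473030: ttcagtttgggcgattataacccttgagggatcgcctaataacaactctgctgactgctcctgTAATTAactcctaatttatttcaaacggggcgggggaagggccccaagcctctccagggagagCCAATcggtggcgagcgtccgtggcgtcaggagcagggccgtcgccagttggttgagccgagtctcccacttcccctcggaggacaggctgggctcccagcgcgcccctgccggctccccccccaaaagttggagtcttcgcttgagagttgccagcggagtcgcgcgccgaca
Both stretches were rich in G and C, at 70% for Msx1 and 61% for Msx2, where the median of 32851 promoters of this length was 52.7%. CCAAT stood at 2 places in the Msx1 stretch and 1 in that of Msx2, and 37.4% of all promoters held it on either strand. TAATTA was in the Msx2 stretch and in 5.29% of all promoters. The TCF/LEF cores CTTTGA and CTTTGT, held on either strand by 16% and 18.7% of promoters, were in neither. These matches describe letters in this window only.

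After filtering, 11021 cells were kept, of which 8980 were epithelial-like, 1221 immune-like and 404 stromal-like by marker scores. Adenoma-like cells, epithelial cells with at least 6 UMIs (unique molecular identifiers, each standing for 1 captured RNA molecule) of Wnt feedback and target genes per 10000, numbered 688 and 386 in the ApcMin libraries, replicates 1 and 2, and 622 and 2438 in the VApcMinL libraries. Cells at or above the cut of a differentiated class, such as enterocyte-like or Paneth-like cells, were not counted among them. The deposited matrices summed to between 44660305 and 128247396 UMIs per library. ApcMin replicate 2 stood apart in that 61.6% of its barcodes with 2000 UMIs or more were over the mitochondrial limit of 20%, against 20.4% to 26.5% in the others. In kit 2, 9 cell barcodes occurred in both libraries. Sex-linked RNA went against the labels. In VApcMinL replicate 1, 610 of 622 adenoma-like cells had Xist alone, that is, without any UMI of Y-linked genes. VApcMinL replicate 2 held 628 such cells beside 1386 with Y-linked RNA alone and 208 with both. No adenoma-like cell of either ApcMin library had Xist alone, and 2 and 1 of them, in replicates 1 and 2, had both. The study's methods describe independent cohorts and several tumors per preparation, but which mice entered each library is not given in the sources used here, so p-values measure the spread between these 4 libraries only. More experiments were integrated in the study than the 2 pairs analysed here.

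Lef1, the deleted gene, was read first. In adenoma-like cells it stood at 8.02 and 31.6 UMIs per 1000000 UMIs (CPM) in the ApcMin libraries, replicates 1 and 2, and at 24.9 and 20.8 CPM in the VApcMinL libraries. It was thus higher in the library labelled VApcMinL than in its ApcMin partner in kit 2, and lower in kit 3. The 3′ tags may lie outside the deleted exons, in which case they do not check the deletion. Libraries are named by their labels below, and every direction given for VApcMinL is a direction between labels. Whether libraries were exchanged was not tested.

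Msx1 was concentrated in adenoma-like cells. They were 37.5% of all cells kept and held 93.4% of the 18433 Msx1 UMIs in those cells. Within single libraries this share was 89.0% and 78.7% in ApcMin and 83.2% and 95.1% in VApcMinL. Adenoma-like cells were deep, with 113007158 UMIs of all genes beside 211682511 in all epithelial-like cells. Their share of cells therefore understates their share of UMIs. Over all barcodes, kept or not, Msx1 had 2830 and 1090 UMIs in ApcMin and 481 and 17643 in VApcMinL. Msx1 in adenoma-like cells stood at 138 CPM (2144 UMIs) and 37.1 CPM (550 UMIs) in ApcMin replicates 1 and 2, and at 23.6 CPM (312 UMIs) and 205 CPM (14211 UMIs) in VApcMinL replicates 1 and 2. The highest and the lowest library thus carried the same label.

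Enterocyte-like cells, the absorptive cells of the villus, had Msx1 at 4.51 and 0.692 CPM in the ApcMin libraries and at 0.759 and 14.4 CPM in the VApcMinL libraries. The adenoma-like level was above the enterocyte-like level within every library, by 30.5-fold and 53.7-fold in ApcMin and 31.1-fold and 14.2-fold in VApcMinL. In the fit over both cell classes with the library as a block, Msx1 was higher by 4.01 on the log2 scale (SE 0.27, edgeR adjusted p 6.18e-07, higher in 4 of 4 libraries). In this comparison 40.8% of the 13449 genes tested were called higher and 35.4% lower, so the call itself sets Msx1 apart little, whereas 5.03% of genes had a larger log2 difference. Without VApcMinL replicate 2 the difference was 4.62. The adenoma-like class was cut by Wnt target genes among epithelial cells below the cuts of all differentiated classes. The enterocyte-like class was cut by enterocyte genes, without a Wnt criterion. The fold changes of both genes are between classes so chosen, and neither Msx1 nor Msx2 was a marker.

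Crypt-like cells, with markers of intestinal stem and progenitor cells but under the adenoma cut, held Msx1 at 21.7 and 23.7 CPM in ApcMin replicate 1 and VApcMinL replicate 2. They held 1 UMI (1.23 CPM) in 51 cells of VApcMinL replicate 1, a ratio of 19.2 with a counting interval of 3.42 to 761, and none in 50 cells of ApcMin replicate 2, where the class total allows up to 1.39 CPM at 3 UMIs. Adenoma-like cells were higher by 6.33-fold and 8.63-fold in the former 2 libraries and by at least 26.7-fold in ApcMin replicate 2, taking 3 UMIs per library as the floor. Over the 4 libraries Msx1 was higher in adenoma-like than in crypt-like cells by 3.13 (log2, SE 0.28, edgeR adjusted p 1.02e-06), where 26.1% of 12542 genes were called higher and 44.8% in either direction. The crypt-like sums were 37 and 0 UMIs in ApcMin and 1 and 46 in VApcMinL, with the 37 and 46 from 6 and 10 cells. The size of the difference is therefore loosely set. DESeq2 gave 3.91 (SE 0.95, adjusted p 0.000239). The fit with no library block gave 2.92 (SE 0.98, edgeR adjusted p 0.0493). Without ApcMin replicate 2, the library with most barcodes over the mitochondrial limit, the Msx1 difference was 3.76 against enterocyte-like and 2.87 against crypt-like cells. Without VApcMinL replicate 1, whose Xist went against its label, it was 3.95 and 3.09, and all of these were called by edgeR.

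**Figure D1:**
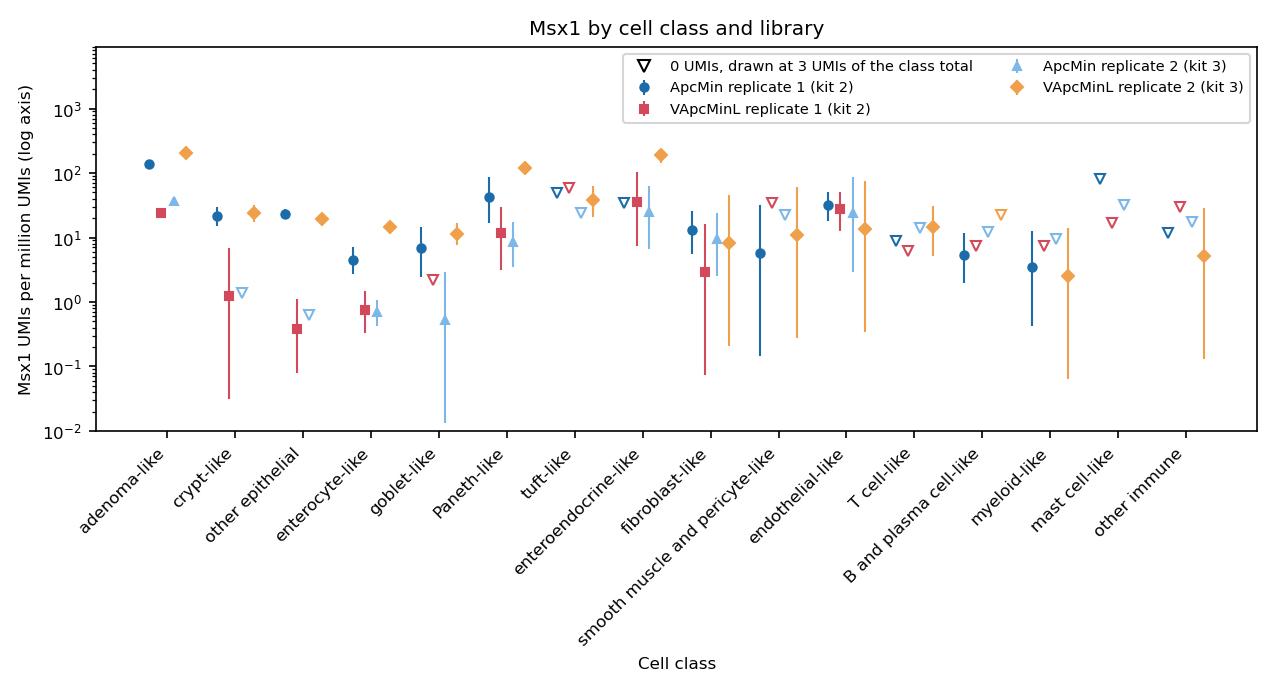
Msx1 level in CPM on a log axis for each cell class (x axis) in each of the 4 libraries, with exact Poisson 95% intervals that cover counting error only; open triangles mark classes with 0 UMIs, drawn at 3 UMIs of the class total. The adenoma-like values run from 23.6 to 205 CPM and lie above the enterocyte-like and crypt-like value of the same library in all 4 libraries.

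Outside the crypt and villus, endothelial-like cells were the stromal cells with most Msx1. They held 17 UMIs in 96 cells (31.5 CPM) and 2 UMIs in 8 cells (23.9 CPM) in the ApcMin libraries, and 9 UMIs in 54 cells (27.2 CPM) and 1 UMI in 7 cells (13.6 CPM) in the VApcMinL libraries. In VApcMinL replicate 1 the endothelial-like level was therefore close to the adenoma-like level of 23.6 CPM, with an exact 95% interval of 12.4 to 51.6 CPM. Fibroblast-like cells ranged from 2.94 to 13.1 CPM. As a whole, epithelial-like cells had Msx1 at 83.9 and 10.8 CPM in ApcMin and at 9.67 and 155 CPM in VApcMinL, and stromal-like cells at 19.5 and 9.29 CPM and at 13.2 and 10.5 CPM. The epithelial-like level was thus below the stromal-like level in VApcMinL replicate 1 and little above it in ApcMin replicate 2. In the fit epithelial-like cells were higher by 1.94 (log2, SE 0.48, edgeR adjusted p 0.00376), in a contrast where 29.3% of genes were called higher, 26.8% lower and 56.1% in either direction. That call was lost with DESeq2 (1.47, adjusted p 0.0512) and without ApcMin replicate 1 (1.503, edgeR adjusted p 0.0738). The adjusted p ran from 0.000923 to 0.0738 over all alternatives.

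Immune-like cells held 16 Msx1 UMIs in 1221 cells, and T cell-like cells held 0 in 3 libraries and 6 UMIs in 126 cells of VApcMinL replicate 2. The fit put epithelial-like above immune-like cells by 4.35 (log2, SE 0.55), where 29.6% of genes were called higher and 55.7% in either direction. The immune-like sums were 8 and 0 UMIs in the ApcMin libraries and 0 and 8 in the VApcMinL libraries. All were under the minimum count of 10, so the fitted difference is a description only. Barcodes with at most 100 UMIs, which mostly hold RNA free in the suspension, had Msx1 at 51.5 and 42.1 CPM in the ApcMin libraries and at 12.8 and 106 CPM in the VApcMinL libraries. In ApcMin replicate 2 the free level was thus above the adenoma-like level of 37.1 CPM, and in the other libraries it was below that of its own library. T cell-like cells held Msx1 only in VApcMinL replicate 2, the library with most free Msx1. B and plasma cell-like cells instead held 6 UMIs in ApcMin replicate 1 and 0 in VApcMinL replicate 2, and myeloid-like cells held 2 and 1. The part of free RNA in these levels and in the adenoma-like levels was not tested.

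Paneth-like cells carried Msx1 mainly where they also carried adenoma markers, and in the other secretory-like classes this pattern came mostly from VApcMinL replicate 2. Of 101 Paneth-like cells, 78 were over the adenoma cut, and these held 207 of the 209 Msx1 UMIs of the class. In VApcMinL replicate 2, Paneth-like cells over the cut stood at 148 CPM (43 cells) and those under it at 6.28 CPM (2 UMIs in 11 cells). Enteroendocrine-like cells of that library showed 209 CPM over the cut (58 UMIs, 24 cells) and 73.6 CPM under it (4 UMIs, 8 cells), from few cells. All 4 enteroendocrine-like UMIs of ApcMin replicate 2 were over the cut, but 2 of 3 in VApcMinL replicate 1 were under it. Goblet-like cells over the cut held 24 of the 35 Msx1 UMIs of their class, 23 of them from VApcMinL replicate 2. In ApcMin replicates 1 and 2, 5 of 6 and 1 of 1 goblet-like UMIs were under the cut. In the absorptive class, 54 of 2979 enterocyte-like cells were over the adenoma cut and held 132 of its 235 Msx1 UMIs, of which 127 were from VApcMinL replicate 2. In the other 3 libraries most enterocyte-like Msx1 UMIs were under the cut, with 18 of 18 and 16 of 20 in ApcMin and 7 of 8 in VApcMinL replicate 1. In VApcMinL replicate 2 the cells over the cut stood at 181 CPM (26 cells) against 4.98 CPM in the 699 others. Pairs of cells in 1 droplet that the doublet caller missed would also give such mixed profiles, and their part was not tested. In VApcMinL replicate 2, 208 adenoma-like cells kept after doublet removal held both Xist and Y-linked RNA, at a median of 40545 UMIs.

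Ranked by the mean of the 4 library levels, Msx1 ran from adenoma-like (101 ± 86.0 CPM, SD, n = 4 libraries) through enteroendocrine-like (61.8 ± 84.8), Paneth-like (45.5 ± 51.8), endothelial-like (24.05 ± 7.60), crypt-like (11.7 ± 12.8) and other epithelial cells (10.8 ± 12.4) to tuft-like (9.38 ± 18.8), fibroblast-like (8.37 ± 4.19), enterocyte-like (5.09 ± 6.45) and goblet-like cells (4.70 ± 5.49). The immune classes and smooth muscle and pericyte-like cells all had means of at most 4.19 CPM. Each neighbouring pair in this order differed by less than the SD of 1 of its members, because the library levels spread so widely. The contrasts of adenoma-like with enterocyte-like and crypt-like cells, made within libraries, kept their direction in every library despite that spread. The epithelial against stromal contrast did not, since VApcMinL replicate 1 went the other way.

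Because deeper cells show more genes, cells were also thinned to 2000 UMIs each before counting those with an Msx1 UMI. The Msx1-positive share of adenoma-like cells was then 18.5% (exact 95% interval 15.6% to 21.6%) and 5.44% (3.40% to 8.20%) in ApcMin replicates 1 and 2. In VApcMinL replicates 1 and 2 it was 4.18% (2.75% to 6.06%) and 30.4% (28.6% to 32.3%). Unthinned, the shares were 62.9% and 35.2% in ApcMin and 25.4% and 80.0% in VApcMinL, at median depths of 18456 to 33676.5 UMIs. After thinning, enterocyte-like cells were positive at 0.371% to 1.66%, with medians of 9918 to 26539 UMIs before it, and T cell-like cells at 0% in 3 libraries and 2.42% in VApcMinL replicate 2, with medians of 2540 to 3252 UMIs. With 58 to 165 T cell-like cells in the former 3 libraries, a count of 0 allows a share of up to 1.82% to 5.17% of cells with a UMI at this depth, which does not limit the share of cells that express Msx1. The adenoma-like share was above the enterocyte-like share of its own library in all 4 libraries, without overlap of their intervals.

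**Figure D2:**
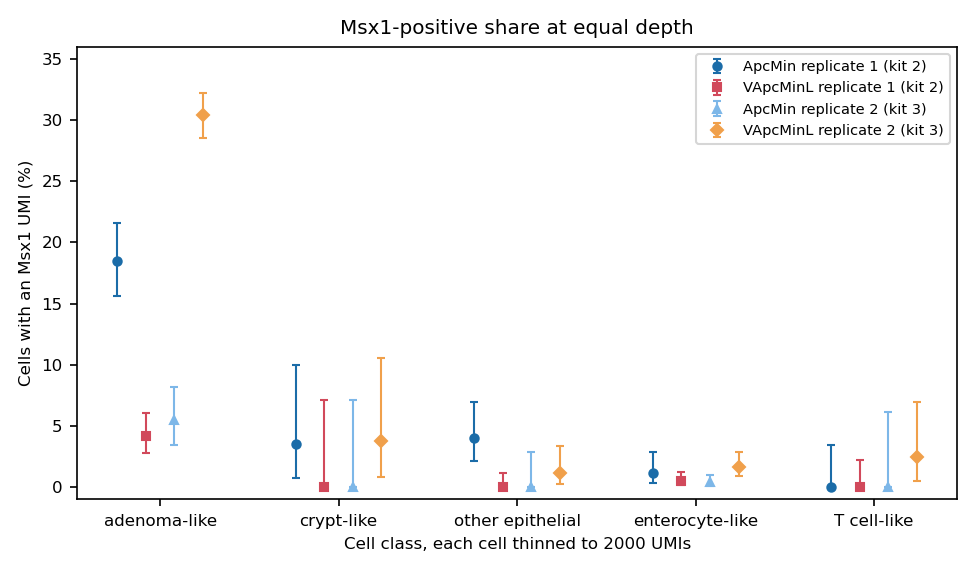
Percent of cells with at least 1 Msx1 UMI (y axis) by cell class (x axis) after every cell was thinned to 2000 UMIs; points are libraries and bars exact binomial 95% intervals, which cover counting error only. Adenoma-like cells stand at 18.5% and 30.4% in ApcMin replicate 1 and VApcMinL replicate 2 and at 4.18% and 5.44% in the other 2 libraries.

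Among adenoma-like cells Msx1 was unevenly spread. No Msx1 UMI was found in 37.1% and 64.8% of cells of the ApcMin libraries and in 74.6% and 19.98% of those of the VApcMinL libraries. At the other end, 8.87% and 4.66% of cells in ApcMin and 0.322% and 20.5% in VApcMinL held 10 or more UMIs, and the highest cell held 73. The tenth of cells richest in Msx1 UMIs held 39.9% to 69.6% of them. The variance of the UMI number was 3.21 to 9.47 times its mean, where counting error alone at 1 depth gives 1, and depth differed between these cells.

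Msx1 followed the adenoma marker score within each library. In cells with 6 to 12 marker UMIs per 10000 it stood at 112 and 22.3 CPM in ApcMin and at 6.40 and 144 CPM in VApcMinL. In cells with 24 or more it stood at 235 and 56.2 CPM in ApcMin and at 45.9 and 255 CPM in VApcMinL. The highest score bin was thus above the lowest in all 4 libraries, with exact Poisson 95% intervals that did not overlap. Between 12 and 24 marker UMIs the level was 145 and 22.4 CPM in ApcMin and 9.98 and 215 CPM in VApcMinL.

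**Figure D3:**
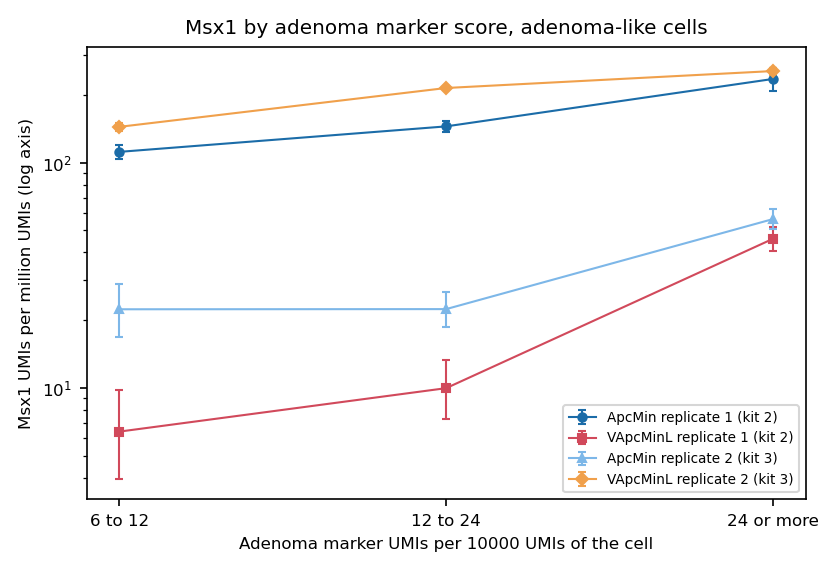
Msx1 level in CPM (log axis) in adenoma-like cells, split by adenoma marker UMIs per 10000 UMIs of the cell (x axis); points are libraries, bars exact Poisson 95% intervals covering counting error only. Msx1 is higher in the top bin than in the bottom bin in all 4 libraries, from 6.40 to 45.9 CPM in VApcMinL replicate 1 and from 144 to 255 CPM in VApcMinL replicate 2.

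Proliferation set Msx1 apart little. Cycling adenoma-like cells, with at least 10 cell cycle UMIs per 10000, had Msx1 at 142 and 39.0 CPM in ApcMin and at 23.1 and 212 CPM in VApcMinL, against 132 and 35.2 CPM and 24 and 196 CPM in non-cycling cells. The fit gave a difference of 0.13 (log2, SE 0.051) that missed the threshold (edgeR adjusted p 0.0523), in a comparison where 50.3% of 12510 genes were called in either direction. Without VApcMinL replicate 1, the only library in which the non-cycling level was the higher, the difference was 0.16 with an adjusted p of 0.0254, and over all alternatives the adjusted p ran from 0.0254 to 0.958.

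The main contrast of the study was tested on Msx1 and Msx2 in adenoma-like cells. ApcMin averaged 87.3 ± 71.0 CPM of Msx1 and VApcMinL 114 ± 128 CPM (SD, n = 2 libraries each), and the groups overlapped completely. With the kit as a block, Msx1 in VApcMinL differed from ApcMin by -0.03 (log2, SE 1.73, edgeR adjusted p 1.00). No gene of 13076 was called by edgeR (0%), 40 had an unadjusted p under 0.05, and DESeq2 called 2. Within kits, 1 library against 1, Msx1 was lower in VApcMinL by 5.82-fold in kit 2 and higher by 5.51-fold in kit 3. No test was possible within a kit.

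The Msx1-positive share showed the same split. After thinning, ApcMin averaged 11.9% ± 9.21 and VApcMinL 17.3% ± 18.5 (SD, n = 2 libraries each), a difference of 5.34 percentage points (two-sided exact permutation p 1.00). With 2 libraries against 2 such a test cannot go below 0.333. Kit 2 gave a difference of -14.3 points, whereas kit 3 gave 25.0 points. Both genotypes thus included a library with a high and a library with a low Msx1 level, and the direction depended on which kit was read.

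Several other epithelial classes had the kit directions of adenoma-like cells. Paneth-like cells differed by -1.63 and 3.44 (log2) and goblet-like cells by -2.72 and 2.87 in kits 2 and 3. Enteroendocrine-like cells did not share the direction in kit 2, where ApcMin replicate 1 held 0 UMIs in 12 cells and VApcMinL replicate 1 held 3 UMIs in 8 cells. Tuft-like cells held 0 Msx1 UMIs in both libraries of kit 2. In enterocyte-like cells Msx1 was lower in VApcMinL by 5.17-fold in kit 2 and higher by 17.4-fold in kit 3. The fit over both kits gave 1.55 (log2, SE 1.43, edgeR adjusted p 1.00), where 2 of 11168 genes (0.0179%) were called, Xist and Ang4, an antimicrobial gene of Paneth cells. Free Msx1 RNA was lower in the VApcMinL library in kit 2 and higher in kit 3 as well, and its part in the enterocyte-like values was not tested. Cycling and non-cycling adenoma-like cells gave kit differences of -2.61 and -2.45 (log2) in kit 2 and 2.44 and 2.47 in kit 3.

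Sex-linked RNA allowed cells to be split within VApcMinL replicate 2. Msx1 stood at 148 CPM (exact Poisson 95% interval 142 to 154) in its adenoma-like cells with Xist alone, and at 226 CPM (221 to 230) in those with Y-linked RNA alone. Both values were above the 38.1 CPM of cells with Y-linked RNA alone in ApcMin replicate 2, its kit partner. The 208 cells of VApcMinL replicate 2 with both kinds of RNA stood at 239 CPM, at a median of 40545 UMIs. That median was 25405.5 UMIs with Xist alone and 24495.5 with Y-linked RNA alone. In VApcMinL replicate 1 the 610 cells with Xist alone stood at 23.5 CPM, against 141 CPM in the 551 cells with Y-linked RNA alone of ApcMin replicate 1. Sex-linked RNA and genotype label cannot be told apart in kit 2.

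Msx2 was rare throughout. It was found at 13 UMIs in 688 cells and 13 in 386 adenoma-like cells of the ApcMin libraries, and at 6 in 622 and 39 in 2438 cells of the VApcMinL libraries. These correspond to 0.834 and 0.877 CPM in ApcMin and to 0.453 and 0.562 CPM in VApcMinL, so both ApcMin values were above both VApcMinL values. The exact Poisson 95% intervals overlapped, as with 0.444 to 1.43 CPM in ApcMin replicate 1 and 0.166 to 0.987 CPM in VApcMinL replicate 1. The fit gave -0.74 (log2, SE 0.71, edgeR adjusted p 1.00), with kit differences of -0.79 and -0.58. At this depth no genotype difference in Msx2 was detectable.

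Adenoma-like cells held 71 of the 76 Msx2 UMIs of epithelial-like cells, in 53 cells. Enterocyte-like cells held 1 UMI in 2979 cells, a level 35.6-fold lower with a counting interval of 6.18-fold to 1424-fold. The fitted difference of 4.37 (log2, SE 0.91) is a description only, since Msx2 passed the expression filter through its adenoma-like sums and 3 of 4 enterocyte-like sums were 0. Crypt-like cells held 2 UMIs, both in 1 cell of VApcMinL replicate 2, and the 2.08-fold lower level has a counting interval of 0.554-fold to 17.5-fold. Barcodes of at most 100 UMIs held Msx2 at 0.464 and 1.11 CPM in the ApcMin libraries (2 and 5 UMIs) and at 0.232 and 0.877 CPM in the VApcMinL libraries (1 and 4 UMIs), and the part of free RNA in the adenoma-like values was not tested. Msx2 was not detected in the 1221 immune-like or 404 stromal-like cells, where counts of 0 after thinning allow shares of up to 0.246% and 0.743% of cells with a UMI. At that depth adenoma-like cells themselves had a share of 0.121% (5 of 4134 cells), so these counts could not show a difference.

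Msx1 exceeded Msx2 in adenoma-like cells by 165-fold and 42.3-fold in ApcMin and by 52.0-fold and 364-fold in VApcMinL, on UMIs not scaled by gene length. The ratio was high where Msx1 was high, since Msx2 differed little between libraries. Cells with both were few: unthinned, 8 and 4 of the Msx1-positive cells held Msx2 in the ApcMin libraries, and 1 and 30 in the VApcMinL libraries. After thinning, 1 cell in all 4 libraries held both genes. The unthinned share with Msx2 was 1.85% and 2.94% in Msx1-positive and 0% and 2% in Msx1-negative cells of the ApcMin libraries. In the VApcMinL libraries it was 0.633% and 1.54% in Msx1-positive and 0.647% and 0.411% in Msx1-negative cells. The exact 95% intervals overlapped in every library, and the shares are not matched for depth.

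Lyz1, a Paneth cell lysozyme, was compared in the same way. After thinning it was found in 18.1% and 14.3% of Msx1-positive adenoma-like cells of the ApcMin libraries and in 19.2% and 20.6% of those of the VApcMinL libraries. In Msx1-negative cells the shares were 12.3% and 15.6%, and 10.1% and 21.1%. The intervals of positive and negative cells overlapped in every library at this depth. Unthinned, the shares were 47.3% and 41.2% in Msx1-positive and 37.3% and 44.8% in Msx1-negative cells of the ApcMin libraries. In VApcMinL they were 31.0% and 62.5% against 33.2% and 52.4%, without overlap of the intervals in replicate 2. The unthinned shares are not matched for depth. Epithelial cells at or above the Paneth cut, whose markers include Lyz1, were not classed as adenoma-like and are not compared here.

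Msx1 was next compared with other genes across the adenoma-like cells of each library. Over 10246 genes found in at least 5% of adenoma-like cells of every library, the mean of the 4 within-library Pearson r values with Msx1 ran from -0.284 to 0.329 with a median of 0.013. Cells of 1 library share its free RNA and dissection, so these values describe and are given with no p. Msx1 itself had r of 0.020 to 0.172 with the log of the cell's total UMIs.

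Nkd1 had the highest mean r, and Notum, also a Wnt feedback gene, was among the highest 10. Nkd1, a cytoplasmic inhibitor of Wnt signaling, had r of 0.367 and 0.291 in the ApcMin libraries and 0.347 and 0.310 in the VApcMinL libraries. Notum, which removes the lipid that Wnt ligands need, had a mean r of 0.249, and the Wnt-induced homeobox gene Prox1 a mean r of 0.244. The secreted protease gene Htra1 reached 0.405 in VApcMinL replicate 1 and 0.150 in VApcMinL replicate 2. Lect2, which encodes a secreted protein and is a known beta-catenin target in liver, had a mean r of 0.232. Of the 17 genes of the adenoma list frequent enough, 9 were positive and 1, Cd44 (-0.167), was negative in all 4 libraries, where 3087 of the 10246 genes had 1 sign in all 4. Ascl2 (-0.00972), Ephb3 (-0.0228), Lgr5 (-0.0376) and Sox4 (-0.0469) had mean r values near 0 and no common sign. Nkd1, Notum and Prox1 belong to the summed score that defined the adenoma-like cells. The cut was on the sum and set no lower limit for any 1 gene, and its effect on these r values was not tested.

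BMP targets stood beside them. Id3, an inhibitor of basic helix-loop-helix factors induced by BMP signaling, had r of 0.331 and 0.216 in ApcMin and 0.272 and 0.275 in VApcMinL. The BMP feedback inhibitor Smad7 had a mean r of 0.244, Id1 0.225, Id2 0.223 and Smad6 0.144, all with the same sign in 4 of 4 libraries. By contrast the receptors Bmpr1a (0.023), Bmpr2 (0.035) and Acvr1 (0.018) and the ligand Bmp7 (0.061) had mean r values near 0. Of 21 BMP pathway genes frequent enough, 9 were positive and 1 negative in all 4 libraries, with a median mean r of 0.030 beside 0.013 over all genes and the 3087 of 10246 genes of 1 sign given above. The BMP score, the summed UMIs of the list, had r of 0.371 and 0.232 with Msx1 in ApcMin and 0.290 and 0.294 in VApcMinL. Abundant genes weigh most in such a sum, and Id3 alone stood at 587 to 750 CPM. The score values lay near those of Id3 given above and do not describe the list as a whole. The T-box gene Tbx3 (mean r 0.279), Aspscr1 (0.287), which encodes a tether of transport vesicles, and the linker histone gene H1fx (0.232) completed the highest 10.

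**Figure D4:**
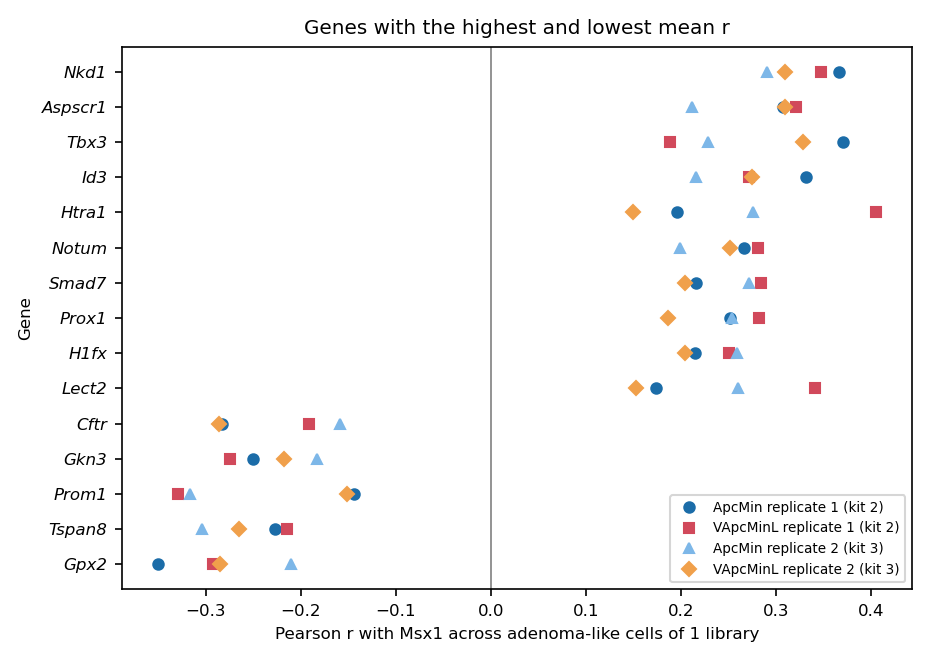
Pearson r with Msx1 (x axis) across adenoma-like cells of each library for the 10 genes with the highest and the 5 with the lowest mean r among genes of 1 sign in all libraries (y axis); each point is 1 library. Nkd1 lies between 0.291 and 0.367 and Gpx2 between -0.350 and -0.210.

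The crypt marker score had r of -0.304 and -0.156 with Msx1 in ApcMin and -0.277 and -0.215 in VApcMinL. Of its 8 genes frequent enough, 4 were negative and 1 positive in all 4 libraries, beside 3087 of 10246 genes of 1 sign, positive or negative. The lowest mean r values were those of Gpx2 (-0.284), an epithelial glutathione peroxidase, Tspan8 (-0.253), Prom1 (-0.235), a surface protein of crypt cells, Gkn3 (-0.231), which is in both the crypt and the stomach-type list, and the chloride channel Cftr (-0.229). Of 14 stomach-type genes frequent enough, 10 were negative and none positive in all 4 libraries, against the same 3087 of 10246, among them Gkn1 (-0.162), Anxa10 (-0.153), Tff1 (-0.150) and Tff2 (-0.143). The fetal-like and regenerative list had 5 of 9 genes negative in all 4 libraries, beside the same 3087 of 10246, including Anxa1 (-0.160), Clu (-0.120) and Ly6a (-0.094). Among the homeobox genes, Prox1, Pitx1 (0.113) and Hhex (0.096) were positive and Isx (-0.088) negative in all 4 libraries. The cell cycle score had r of -0.012 to 0.109 and the Paneth score r of -0.00895 to 0.0228.

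Between libraries, most of the 10 genes with the highest r did not follow Msx1. In adenoma-like cells Nkd1 stood at 128 and 400 CPM in ApcMin replicates 1 and 2 and at 554 and 144 CPM in VApcMinL replicates 1 and 2. It was thus lowest in the 2 libraries with most Msx1 and highest in the library with least. Of the 10 genes with the highest r, 9 were higher in VApcMinL in kit 2, where Msx1 was lower, and 2 were higher in kit 3, where Msx1 was higher. Notum differed by 2.18 and -1.503 (log2) and Lect2 by 2.58 and -1.67 in kits 2 and 3, against -2.54 and 2.46 for Msx1. Id3, at 587 to 750 CPM, differed by 0.35 in kit 2, whereas Tbx3 went with Msx1, by -0.21 in kit 2 and 0.18 in kit 3. The 5 genes with the lowest r were all higher in the library with less Msx1 in both kits, the direction they also had within libraries. Of these, Gkn3 had differences of 2.099 in kit 2 and -0.91 in kit 3.

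**Figure D5:**
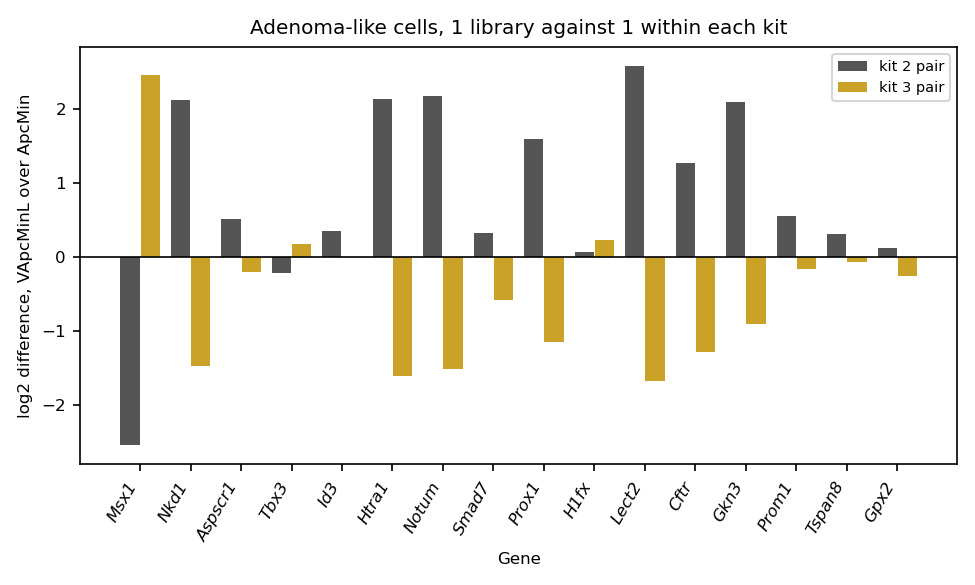
Log2 difference of VApcMinL over ApcMin in adenoma-like cells (y axis) for Msx1 and the 15 correlated genes (x axis), 1 library against 1 within kit 2 (grey) and kit 3 (gold), on CPM with 2 UMIs added to an average-sized sum. Msx1 goes from -2.54 to 2.46, while Nkd1, Htra1, Notum, Prox1 and Lect2 go from positive in kit 2 to negative in kit 3.

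Across cell classes, the gene profiles most like that of Msx1 were searched over 44 sums of 1 library and 1 class with at least 20 cells, on log2(CPM + 1). Il17rd, a feedback inhibitor of fibroblast growth factor signaling, came first (r 0.785), followed by Syn2 (0.771), Sox17 (0.771), Mamld1 (0.760) and Ctxn1 (0.757). Sox17, a transcription factor of endoderm and endothelium, was part of the adenoma score. For Msx2 the first was Igf2bp1 (0.793), an RNA-binding protein gene of fetal tissues, then Bpifb4 (0.786), 2700046A07Rik (0.781), Tmprss11e (0.732) and Ptprz1 (0.731), on sums that are mostly 0. The profiles of Msx1 and Msx2 correlated at 0.490. The 44 sums come from 4 libraries and are not independent.

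BMP pathway genes were also compared between cell classes by role. Against enterocyte-like cells, 13 of the 29 genes tested were called higher and 10 lower in adenoma-like cells, near the 40.8% and 35.4% of all genes, with a median log2 difference of 0.36 beside 0.12 over all genes tested. Among ligands, Bmp2 (-3.82, SE 0.21) and Bmp3 (-3.48, SE 0.29) were lower and Bmp7 (3.58, SE 0.35) higher. The receptors Bmpr1a (-0.82, SE 0.14) and Acvr2a (-1.95, SE 0.16) were lower, as were the signal carriers Smad1 (-0.59, SE 0.12) and Smad4 (-1.10, SE 0.13). The inhibitors Bambi (4.07, SE 0.28) and Fst (3.95, SE 0.21) were higher. The targets Id2 (1.95, SE 0.14) and Id3 (0.90, SE 0.13) were higher, while Id1 (0.39, SE 0.16, edgeR adjusted p 0.0524) missed the threshold.

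Against crypt-like cells the same list shifted upward, as Msx1 did. Of 26 genes tested, 15 were called higher and 3 lower, where 26.1% of all genes were called higher and 18.7% lower, with a median of 1.46 beside 0.072 over all genes. Id1 (1.77, SE 0.16), Id2 (3.104, SE 0.24), Id3 (2.66, SE 0.21), Smad6 (1.73, SE 0.24) and Smad7 (1.75, SE 0.17) were all higher. Bmp3 (-4.52, SE 0.30), Smad4 (-0.73, SE 0.12) and Smad1 (-0.49, SE 0.11) were the genes called lower. Adjusted p-values of the called genes named here were between 7.24e-08 and 0.00329 in this comparison.

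Homeobox genes other than Msx1 and Msx2 moved in both directions. Of 18 tested against enterocyte-like cells, 11 were called higher and 5 lower, where 40.8% of all genes were called higher and 35.4% lower, with a median of 1.29 beside 0.12 over all genes. Prox1 (5.01, SE 0.33), Hhex (4.00, SE 0.23) and Pitx1 (3.94, SE 0.25) were higher, of which Prox1 was part of the adenoma score, so its difference was set by the choice of cells. Isx (-4.26, SE 0.19), Cdx2 (-2.12, SE 0.24) and Cdx1 (-1.81, SE 0.21), regulators of intestinal identity and absorption, were lower. None of the 29 BMP pathway and 18 homeobox genes tested in the genotype contrast was called by edgeR, and none had an unadjusted p under 0.05, while DESeq2 called 2 genes in all.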

How the data were processed

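Single-cell RNA sequencing of adenoma cells gave 4 libraries. The authors deposited raw UMI counts per gene and barcode, made with Cell Ranger against mm10 (version 2.1.1 per the labels, 3.1.0 per the file headers of kit 3); Seurat 3.1.1 is named in the submitters' processing notes. Barcodes with at least 2000 UMIs and at most 20% mitochondrial UMIs were kept, and Scrublet's highest scores (0.8% per 1000 cells, 276 cells) were removed. Lineages and classes were gated by summed marker UMIs per 10000 (epithelial 40, immune and stromal 20, enterocyte and Paneth 100, goblet 200, adenoma 6, crypt 5, cycling 10), with thresholds set on these data. UMIs were summed per library and class and tested over all genes with edgeR 4.0.16 (quasi-likelihood, TMM, minimum count of 10), blocked by kit for genotype and by library for classes. Benjamini-Hochberg adjusted p under 0.05 was called. Shares used cells thinned to 2000 UMIs. The fits were first tested on simulated data. The kit paired the libraries by the labels, and deviations of libraries of the same kit correlated at 0.217 over 13076 genes.

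Named genes were Msx1, Msx2, Lef1, the 10 highest and 5 lowest mean correlations with Msx1, the 5 most like profiles of each gene, and listed genes called in a comparison. Members and lists were chosen with earlier results of these data known. Intervals cover counting error only. Alternatives were DESeq2, other scaling, no filter, no block, other depth and mitochondrial limits, doublets kept, other adenoma gates, other thinning and leaving out each library. A listed gene is not reported here.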

Additional observations from a re-analysis of the deposited data

Results flagged for a closer look

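The Msx1 difference of VApcMinL over ApcMin went opposite ways in the kits, which drew attention because the same contrast changed sign. In adenoma-like cells it was -2.54 (log2) in kit 2 and 2.46 in kit 3, and in enterocyte-like cells it was -2.37 and 4.12. For the Msx1-positive share, kit 2 gave -14.3 points and kit 3 gave 25.0 points. The difference between the kits was not tested, since each holds 1 library per group.

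Msx1 was also present in barcodes that the comparisons leave out. Adenoma-like barcodes over the mitochondrial limit held Msx1 at 107 CPM (12 UMIs) and 20.9 CPM (17 UMIs) in ApcMin replicates 1 and 2, and at 164 CPM (218 UMIs) in VApcMinL replicate 2. In VApcMinL replicate 1, 0 UMIs were found in 26 such barcodes. Barcodes of at most 100 UMIs held 51.5 and 42.1 CPM in the ApcMin libraries and 12.8 and 106 CPM in the VApcMinL libraries.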

How the results depend on the processing

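Of 121 values computed under alternatives for 12 results, 104 kept their direction and, where a test gave one, their call. Genotype values with a library left out have no call and were counted by direction only. The share test, which cannot go below 0.333, could give no call. Calls of Msx2 against enterocyte-like and of Msx1 against immune-like cells, which are descriptions only, are also counted. The genotype difference of Msx1 in adenoma-like cells turned from -0.03 to 0.27 with no replicate block and to 0.13 after thinning, and ran from -2.63 to 2.54 when 1 library was left out, the blocked fit then resting on 1 kit with no test. The block changed no call of Msx1. In enterocyte-like cells that range was -2.51 to 4.32, and for Msx2 in adenoma-like cells -0.96 to -0.56. The share difference ran from -7.77 to 18.4 points for Msx1 and from -0.229 to 0.0615 points for Msx2 when a library was left out. For Msx2 it turned from -0.0838 to 0.323 points with thinning to 5000 UMIs, 0.030 with doublets kept and 0.0089 without secreted inhibitors among the adenoma markers. Genotype calls moved from 0 to 2 with DESeq2 and 1 without a filter, and leaving out a library left no test for them. The epithelial against stromal difference of Msx1 lost its call with DESeq2 (1.47) and without ApcMin replicate 1, and ran from 1.36 to 2.41 without 1 library. Cycling cells ran from 0.12 to 0.16. Without 1 library, the Msx1 difference of adenoma-like cells ran from 3.76 to 4.62 against enterocyte-like and from 2.87 to 3.46 against crypt-like cells. All of these were called. For Msx1 in epithelial-like against immune-like cells the range, a description only, was 4.28 to 4.42. The Msx2 difference, also a description, ran from 3.99 to 4.25 against enterocyte-like cells. Leaving out ApcMin replicate 1 or 2, the fit with no replicate block and the mitochondrial limit of 10% put Msx2 under the expression filter there. Msx2 was under that filter in the main form of 5 comparisons, which gave it no value. The cause of these changes was not tested. With 2 libraries a group, the depth of Msx2, at 6 to 39 UMIs, limits any comparison.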
